A study of Mus musculus with 8 samples.

Results

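The imprinted *Peg10*-*Sgce* domain is a group of neighbouring genes on mouse chromosome 6, and 8 of its genes were followed here by name among the 26263 genes of the count tables: *Peg10*, *Sgce*, *Ppp1r9a*, *Asb4*, *Tfpi2*, *Pon2*, *Pon3* and *Calcr*. The genes were chosen by their place in the domain and not by their levels. RNA was sequenced from embryonic stem cells (ESCs) and from the neural precursor cells (NPCs) that these ESCs gave after 12 days of *in vitro* corticogenesis, a culture that leads ESCs towards cells of the dorsal forebrain. The study used this model to follow how imprinted expression is acquired on neural commitment. Both stages came from 2 hybrid ESC lines of reciprocal crosses, B/J (genotype C57BL/6 x JF1, line BJE2) and J/B (genotype JF1 x C57BL/6, line JBE6), with 2 libraries for each stage and cross and so 8 libraries in all. Each cross is represented by 1 male line, so cross and line cannot be told apart. All ESCs were kept in a serum-free medium with LIF, BMP4 and a GSK3-β inhibitor, and every NPC library is from day 12. The labels number the replicates without saying whether they were separate cultures, so the p-values measure the spread between these libraries, which may be technical. It was larger than counting error, with a chi-square of 49.4 to 68.6 per degree of freedom between the replicates of a group.

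Imprinted genes are read mainly from 1 parental chromosome, as set by DNA methylation laid down in the germ line. In this domain the control region covers the shared start of *Peg10* and *Sgce*, is methylated on the maternal chromosome, and leaves both genes to be expressed from the paternal one. Several genes around them, among them *Ppp1r9a*, *Asb4*, *Tfpi2*, *Pon2*, *Pon3* and *Calcr*, are known for maternal bias in some tissues, mainly the placenta or the brain, and for expression from both alleles elsewhere. The counts sum both alleles, so they hold no information on parental origin.

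On GRCm39, the build to which the reads were aligned, the domain's genes span 1.75 Mb. *Calcr* lies at chr6:3685680-3764714 on the minus strand and *Tfpi2* at chr6:3962589-3988964 on the minus strand. *Sgce* (chr6:4672057-4747207, minus strand) and *Peg10* (chr6:4747306-4760517, plus strand) run away from each other from start sites only 99 bp apart. *Ppp1r9a* follows at chr6:4902745-5165667 on the plus strand, *Pon3* at chr6:5220758-5256301 and *Pon2* at chr6:5263103-5298476, both on the minus strand with 6.8 kb between them, and *Asb4* at chr6:5383386-5433026 on the plus strand. In the annotation, no exon of the 8 genes overlapped an exon of another gene of the count tables, on either strand.

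The start regions of the paraoxonase neighbours are shown because *Pon2* and *Pon3*, which lie side by side and are read in the same direction, were called higher and not called, although the test of the difference between them given with their values did not pass. RefSeq promoter windows, which run from 250 bases before the start to 50 after it on build GRCm38.p6, were found for 6 of the 8 genes (not *Peg10* and *Sgce*). Both are written 5′ to 3′ on the strand of the gene, with each CG dinucleotide in capitals, a motif that reads the same on both strands.
*Pon2*, chr6:5298291-5298590 on the minus strand of GRCm38.p6: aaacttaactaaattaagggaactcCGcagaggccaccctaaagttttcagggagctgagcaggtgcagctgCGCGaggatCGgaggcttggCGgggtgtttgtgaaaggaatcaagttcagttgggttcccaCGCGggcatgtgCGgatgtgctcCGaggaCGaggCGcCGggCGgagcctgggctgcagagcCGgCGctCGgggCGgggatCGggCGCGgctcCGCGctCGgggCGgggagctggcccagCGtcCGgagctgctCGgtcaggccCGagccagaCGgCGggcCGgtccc
*Pon3*, chr6:5256184-5256483 on the minus strand of GRCm38.p6: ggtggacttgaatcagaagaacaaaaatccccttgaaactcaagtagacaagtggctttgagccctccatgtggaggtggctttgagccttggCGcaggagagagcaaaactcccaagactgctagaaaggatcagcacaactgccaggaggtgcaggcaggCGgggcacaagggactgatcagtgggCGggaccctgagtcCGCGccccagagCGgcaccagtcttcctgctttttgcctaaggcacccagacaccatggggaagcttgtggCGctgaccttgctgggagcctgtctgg
The *Pon2* window held 31 CG dinucleotides, a number reached by 10.6% of the 32851 mouse windows of 300 bases, and the *Pon3* window held 7, a number reached by 52.1%. At least 1 CG was present in 94.6% of all windows. The other genes had several start sites each. *Ppp1r9a* had windows with 48 and 10 CG, *Calcr* with 29 and 4, *Asb4* with 6 and 8, and *Tfpi2* with 2, 2 and 12.

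Each library had 22537138 to 32706015 reads on genes. The levels below are CPM, the share of a gene in the reads of its library, after normalisation by TMM, a scaling that sets the bulk of genes equal between libraries (TMM-CPM), and changes are log2 fold changes of NPCs against ESCs from edgeR's quasi-likelihood test, with the standard error of the fit (SE) and a p-value adjusted by the Benjamini-Hochberg method over the 16399 genes tested. The call threshold was an adjusted p of 0.05. Under TMM the median change of all tested genes was 0.17 on the log2 scale, and it was 0.65 when libraries were scaled to their totals and 0.80 when they were scaled to *Gapdh*, *Gusb* and *Tbp*, the housekeeping genes of the study. The share of calls that were higher in NPCs moved with it, from 54.0% under TMM to 70.1% on totals and 75.0% on the housekeeping genes.

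The stages differed in cell markers, beside 37.5% of all tested genes called higher in NPCs and 31.9% lower. All 8 pluripotency markers fell, with a summed level of 5301 to 8941 TMM-CPM in ESCs and 167 to 412 in NPCs, and 7 of 8 neural precursor markers rose (265 to 338 in ESCs, 565 to 1416 in NPCs). Markers of other cell types rose as well. All 9 trophoblast markers rose, from a sum of 3.43 to 14.9 in ESCs, where *Tpbpa*, *Prl3d1*, *Prl2c2* and *Prl3b1* were at 0 in every library, to 235 to 674 in NPCs. Of the fibroblast and mesenchyme markers 7 of 8 rose and *Fn1* fell (sums 1663 to 2186 and 2088 to 3354), and all 4 endoderm markers tested rose (0.781 to 3.15 and 12.9 to 49.95). Of the endothelial markers 3 of 6 rose, *Pecam1* fell, and *Tek* and *Tie1* were not called (38.0 to 109 and 238 to 819). Most of that sum in NPCs was *Cdh5*, at 210 to 772 TMM-CPM, which was at most 0.320 in ESCs. Of the neuronal markers 6 of 7 rose and *Stmn2* fell (315 to 455 and 280 to 1531), and of the muscle markers 2 of 5 rose and *Myh6* fell (6.73 to 25.1 and 30.3 to 139). *Fn1* was not called lower on library totals or the housekeeping genes, nor *Stmn2* on the latter. *Fn1* also lost its call in 5 of 8 fits that left out 1 library, and 3 endoderm markers were called without NPC B/J replicate 2. Of the muscle markers 1 rose without NPC J/B replicate 1, the library with the highest sum, and 3 rose without ESC B/J replicate 2, without ESC J/B replicate 2 and in fits with a block for the replicate number, over all libraries or within each stage. In bulk RNA, fewer cells of a type cannot be told apart from less RNA per cell.

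Of the 8 genes, *Peg10*, *Sgce*, *Asb4* and *Pon2* rose in NPCs, by 5.47-fold to 18.2-fold. *Ppp1r9a*, *Pon3* and *Calcr* were not called in either direction, and *Tfpi2* was close to absent at both stages and too low to be tested. The 4 rises of 7 genes tested stand beside a background in which 37.5% of all tested genes were called higher and 31.9% lower. For each of these 4 genes every NPC library was above every ESC library, which held for 35.3% of all tested genes. The median change of the 7 genes was 2.45, beside 0.17 for all tested genes.

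**Figure D1:**
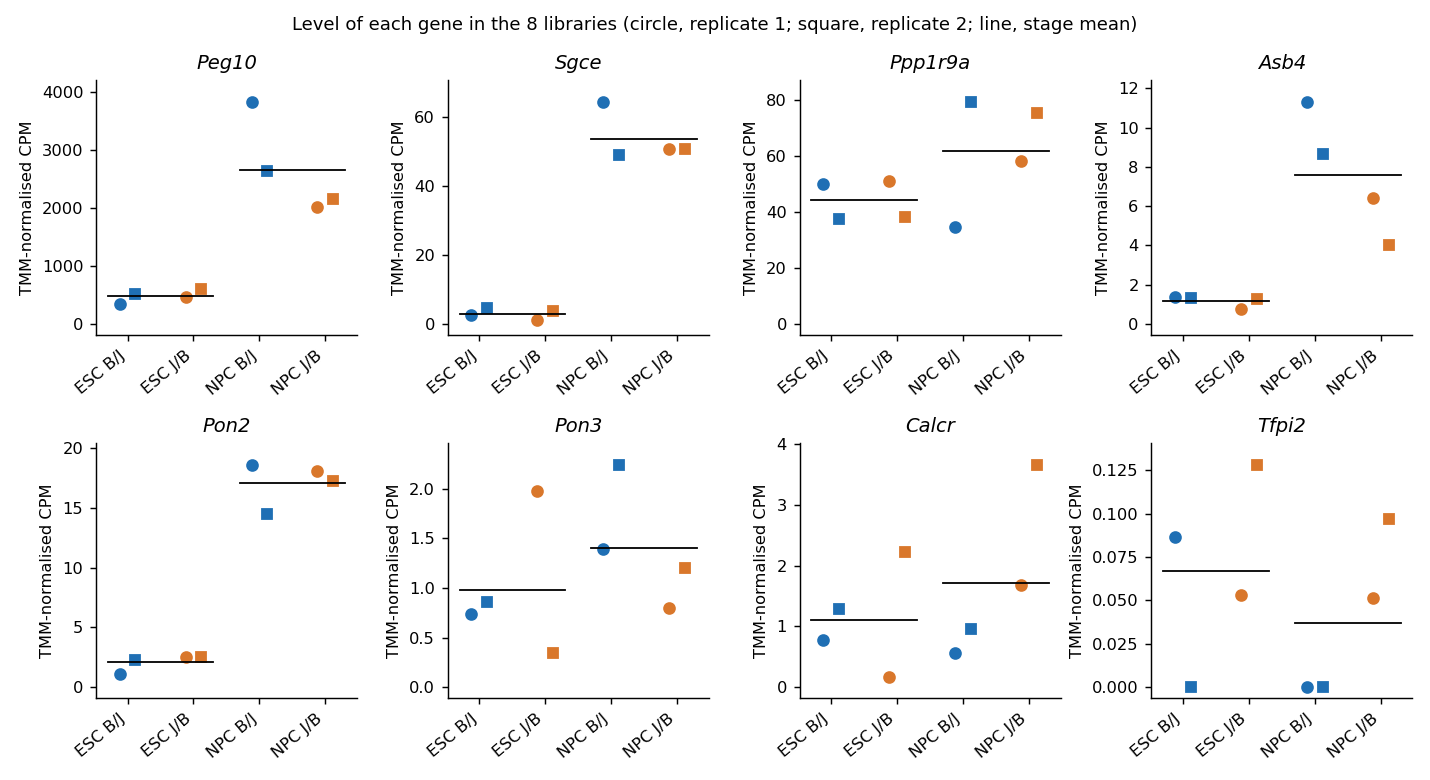
Level of each of the 8 genes (TMM-normalised CPM, linear axes of their own) in the 4 groups, with 1 point per library and a line at the mean of the 4 libraries of a stage. *Peg10*, *Sgce*, *Asb4* and *Pon2* show no overlap between the stages, and the other genes overlap.

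*Peg10* is a domesticated gene of retrotransposon origin that keeps Gag- and Pol-like reading frames and is needed to form the placenta. It was by far the most abundant gene of the domain. Its levels were 339 and 512 TMM-CPM in the B/J ESCs, 461 and 597 in the J/B ESCs, 3835 and 2644 in the B/J NPCs, and 2013 and 2151 in the J/B NPCs. The lowest NPC library thus stood well above the highest ESC library. The spread in TMM-CPM, though not relative to the level, was widest within the B/J NPCs. The mean was 477 ± 108 TMM-CPM (SD, n = 4) in ESCs and 2661 ± 828 (n = 4) in NPCs, and the log2 fold change was 2.45 (SE 0.20, adjusted p = 4.4e-05). By count, *Peg10* was between the 286th and the 646th gene of each ESC library and between the 3rd and the 11th of each NPC library.

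*Peg10* was highest in NPC B/J replicate 1, the library that was also highest in summed trophoblast markers (674 TMM-CPM against 235 to 367 in the other NPC libraries). The same library was highest in summed endothelial markers (819 against 238 to 425), most of which was *Cdh5* (772 against 210 to 385). Of the other endothelial markers, *Kdr* and *Emcn* rose between the stages, *Pecam1* fell, and *Tek* and *Tie1* were not called. *Tpbpa*, a marker of the spongiotrophoblast, was read at 395 TMM-CPM in NPC B/J replicate 1 and at 141 to 236 in the other NPCs. The part of trophoblast or endothelial cells in the *Peg10* level was not tested. Without NPC B/J replicate 1, the log2 fold change of *Peg10* was 2.30.

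*Sgce* encodes epsilon-sarcoglycan, a membrane glycoprotein of the dystrophin-associated complex, and loss of its paternal copy causes myoclonus-dystonia in humans. It was low in ESCs, at 2.69 and 4.58 TMM-CPM in B/J and at 1.01 and 3.71 in J/B. In NPCs it was read at 64.4 and 49.0 in B/J and at 50.6 and 50.9 in J/B. The NPC libraries lay close together apart from the highest, NPC B/J replicate 1, and the ESC libraries were more uneven, with the lowest value in ESC J/B replicate 1. The change of 4.18 (SE 0.40, adjusted p = 8.3e-05) was the largest among the 7 genes tested, and it was 4.81 without ESC J/B replicate 2.

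*Peg10* and *Sgce* share a start region, yet *Sgce* rose more. The ratio of *Peg10* to *Sgce* counts within a library does not depend on the scaling between libraries. It was 126 and 112 in the B/J ESCs, 455 and 161 in the J/B ESCs, 59.5 and 53.9 in the B/J NPCs, and 39.8 and 42.3 in the J/B NPCs. Every NPC library had a lower ratio than every ESC library. On the log2 scale the ratio was 7.47 ± 0.91 (SD, n = 4) in ESCs and 5.59 ± 0.28 (n = 4) in NPCs, and it fell by 1.88, or 3.68-fold (two-sided exact permutation test, p = 0.0286, the smallest p that 4 against 4 libraries can give, with all libraries taken as exchangeable). The difference was -1.06 within B/J and -2.70 within J/B, where a permutation of 2 against 2 libraries cannot reach the threshold and no other test was run. Its largest ratio, in ESC J/B replicate 1, rests on 19 counts of *Sgce*, and without that library the difference was -1.44 (p = 0.0286, also by exact permutation). The ratio is one of counts and not of molecules, since the *Peg10* transcript is longer.

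**Figure D2:**
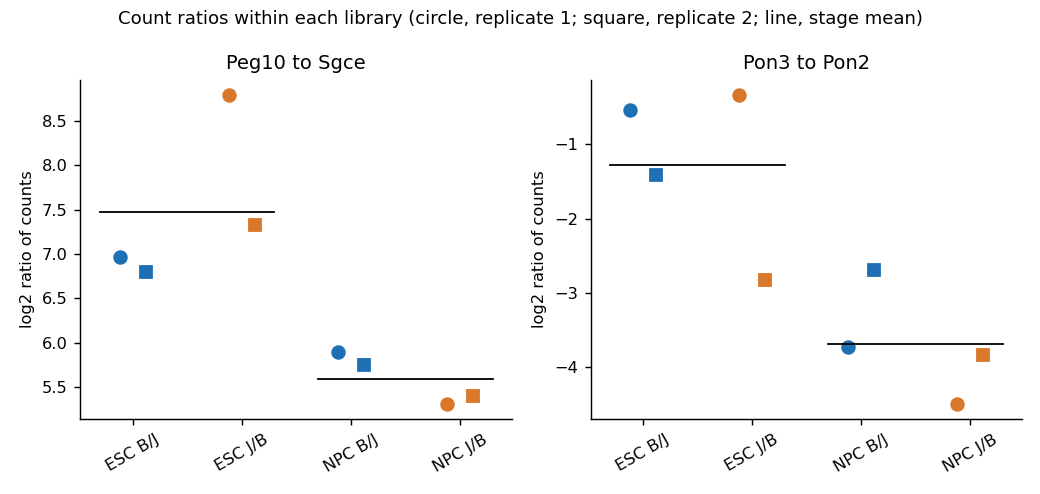
Log2 ratio of counts of *Peg10* to *Sgce* (left) and of *Pon3* to *Pon2* (right) in each library, with a line at the mean of the 4 libraries of a stage. All 4 NPC libraries lie below all 4 ESC libraries in the left panel, and the highest NPC library (-2.69) lies above the lowest ESC library (-2.83) in the right panel.

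*Asb4* encodes an ankyrin repeat protein with a SOCS box that acts as a substrate receptor of a cullin-5 ubiquitin ligase and is known from the hypothalamus and from the vessels of the placenta. It was read at 1.39 and 1.33 TMM-CPM in the B/J ESCs and at 0.747 and 1.28 in the J/B ESCs. In NPCs it reached 11.3 and 8.65 for B/J, and 6.40 and 4.04 for J/B. The stages did not overlap, and both J/B NPC libraries were below both B/J ones. The log2 fold change was 2.61 (SE 0.34, adjusted p = 0.000325). As for *Peg10*, the highest library was NPC B/J replicate 1, where *Cdh5*, the cadherin of endothelial cells, was read at 772 TMM-CPM against 210 to 385 in the other NPCs. Of the other endothelial markers, *Kdr* and *Emcn* rose between the stages, *Pecam1* fell by 2.35, and *Tek* (-0.69) and *Tie1* (1.89) were not called. The part of endothelial or trophoblast cells in the *Asb4* level was not tested.

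*Pon2* and *Pon3* encode paraoxonases, lactonases that protect against lipid oxidation. *Pon2* is made inside most cells, and *Pon3* mainly in the liver, from which it enters the blood. *Pon2* was read at 1.09 and 2.31 TMM-CPM in the B/J ESCs, 2.51 and 2.56 in the J/B ESCs, 18.6 and 14.5 in the B/J NPCs, and 18.1 and 17.3 in the J/B NPCs. The 4 NPC libraries were close to each other and far above the ESC libraries. The log2 fold change was 3.04 (SE 0.30, adjusted p = 8.8e-05).

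*Pon3* stayed low, with 0.738 and 0.855 TMM-CPM in the B/J ESCs, 1.97 and 0.341 in the J/B ESCs, 1.40 and 2.24 in the B/J NPCs, and 0.793 and 1.19 in the J/B NPCs. The stages overlapped, and the widest gap between replicates was that of the J/B ESCs, where the counts were 37 and 8. The log2 fold change was 0.49 (SE 0.58, adjusted p = 0.472). Leaving out ESC J/B replicate 1 gave 1.35 (adjusted p = 0.052), and leaving out replicate 2 of the same group gave 0.11 (adjusted p = 0.852). Against its neighbour *Pon2*, the log2 ratio of *Pon3* counts was -1.28 ± 1.13 (SD, n = 4) in ESCs and -3.68 ± 0.75 (n = 4) in NPCs, a difference of -2.40 that did not pass (two-sided exact permutation test, p = 0.0571). The lowest ESC ratio, in ESC J/B replicate 2, rests on 8 counts of *Pon3*. Without that library the difference was -2.92 (exact permutation, p = 0.0286), and with each of the other libraries left out the p was 0.0571 or 0.0857.

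*Ppp1r9a* encodes neurabin, which binds actin and brings protein phosphatase 1 to the spines of neurons. It was already well expressed in ESCs, at 49.96 and 37.3 TMM-CPM in B/J and at 51.0 and 38.0 in J/B. In NPCs it was read at 34.5 and 79.1 in B/J and at 58.0 and 75.2 in J/B. In 3 NPC libraries it was above all ESC libraries, and in NPC B/J replicate 1 it was below them all. That library also had the lowest sum of neural precursor markers of the NPCs (565 TMM-CPM against 1051 to 1416) and of neuronal markers (280 against 766 to 1531), and their part in the *Ppp1r9a* level was not tested. The log2 fold change was 0.48 (SE 0.27, adjusted p = 0.15). It was 0.72 without NPC B/J replicate 1 and 0.12 without NPC B/J replicate 2. *Ppp1r9a* was called on library totals (0.97, adjusted p = 0.0156) and on the housekeeping genes (1.15, adjusted p = 0.0128). With a block for the replicate number within each stage it was called as well (0.45, adjusted p = 0.0302). Its change thus depends on 1 library, and its call on the scaling and on that block.

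*Calcr* encodes the calcitonin receptor, a receptor coupled to G proteins. It was low throughout, at 0.781 and 1.28 TMM-CPM in the B/J ESCs, 0.160 and 2.22 in the J/B ESCs, 0.570 and 0.958 in the B/J NPCs, and 1.69 and 3.65 in the J/B NPCs. Replicate 2 was above replicate 1 in each of the 4 groups, and the stages overlapped. The lowest value rests on 3 counts (95% exact Poisson interval 0.0330 to 0.468 TMM-CPM, counting error only). The log2 fold change was 0.36 (SE 0.72, adjusted p = 0.674). Leaving out ESC J/B replicate 1 gave -0.087, and leaving out ESC J/B replicate 2 gave 1.80 (adjusted p = 0.0344), so no direction can be given.

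*Tfpi2* encodes an inhibitor of serine proteases with Kunitz domains that is abundant in placenta. Its counts were 2 and 0 in the B/J ESCs, 1 and 3 in the J/B ESCs, 0 and 0 in the B/J NPCs, and 2 and 3 in the J/B NPCs. In the NPC libraries with 0 counts, a level of up to 0.0855 and 0.0958 TMM-CPM is allowed by a limit of 3 counts. No more than 3 reads were counted in any library, and no difference between the stages was detectable at this depth, while the 9 trophoblast markers rose.

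Per kilobase of the canonical transcript, the order of the levels in ESCs was *Peg10* (72.7 ± 16.4 TMM-CPM per kb, SD, n = 4), *Ppp1r9a* (4.57 ± 0.77), *Sgce* (0.751 ± 0.383), *Pon2* (0.609 ± 0.20), *Pon3* (0.528 ± 0.378), *Asb4* (0.317 ± 0.079), *Calcr* (0.316 ± 0.247) and *Tfpi2* (0.0425 ± 0.0343). *Peg10* and *Ppp1r9a* each stood apart from the next gene in all libraries, and from *Sgce* downwards every gene overlapped the next in the order. In NPCs the order was *Peg10* (405 ± 126), *Sgce* (13.5 ± 1.8), *Ppp1r9a* (6.40 ± 2.11), *Pon2* (4.92 ± 0.53), *Asb4* (2.03 ± 0.83), *Pon3* (0.759 ± 0.328), *Calcr* (0.488 ± 0.390) and *Tfpi2* (0.0235 ± 0.0296). There *Peg10* and *Sgce* each stood apart from the next gene, as did *Pon2* from *Asb4* and *Calcr* from *Tfpi2*, whereas *Ppp1r9a* overlapped *Pon2*, *Asb4* overlapped *Pon3*, and *Pon3* overlapped *Calcr*. With the length of all annotated exons together, *Peg10* kept rank 1 at both stages, *Sgce* took rank 5 in ESCs and 3 in NPCs, and *Ppp1r9a* rank 2 at both. *Calcr* moved from rank 7 to 3, *Asb4* from 6 to 4, *Pon2* from 4 to 6 and *Pon3* from 5 to 7 in ESCs, so the order below *Ppp1r9a* depends on the length used.

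The same 4 genes rose within each cross. Within B/J, the log2 fold changes were 2.93 for *Peg10* (SE 0.29), 3.96 for *Sgce* (SE 0.56), 2.87 for *Asb4* (SE 0.48) and 3.28 for *Pon2* (SE 0.43), where 30.1% of all tested genes were called higher. Within J/B they were 1.98 (SE 0.28), 4.40 (SE 0.58), 2.35 (SE 0.48) and 2.80 (SE 0.42) in the same order, where 29.1% were called higher. For *Sgce* within J/B, leaving out replicate 1 of the J/B ESCs gave 3.77 and leaving out replicate 2 gave 5.66. For *Pon2* within B/J, values with 1 library left out ranged from 2.84 to 3.92, the highest without replicate 2 of the B/J ESCs. *Ppp1r9a* stood at 0.38 and 0.58 in B/J and J/B, *Pon3* at 1.18 and -0.21, and *Calcr* at -0.44 and 1.15, none of them called. Within J/B, *Calcr* was called without ESC J/B replicate 2, at 4.04 (adjusted p = 0.0202), and *Ppp1r9a* on the housekeeping genes, at 1.36 (adjusted p = 0.0343), and with a block within each stage, at 0.60 (adjusted p = 0.0422). 

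**Figure D3:**
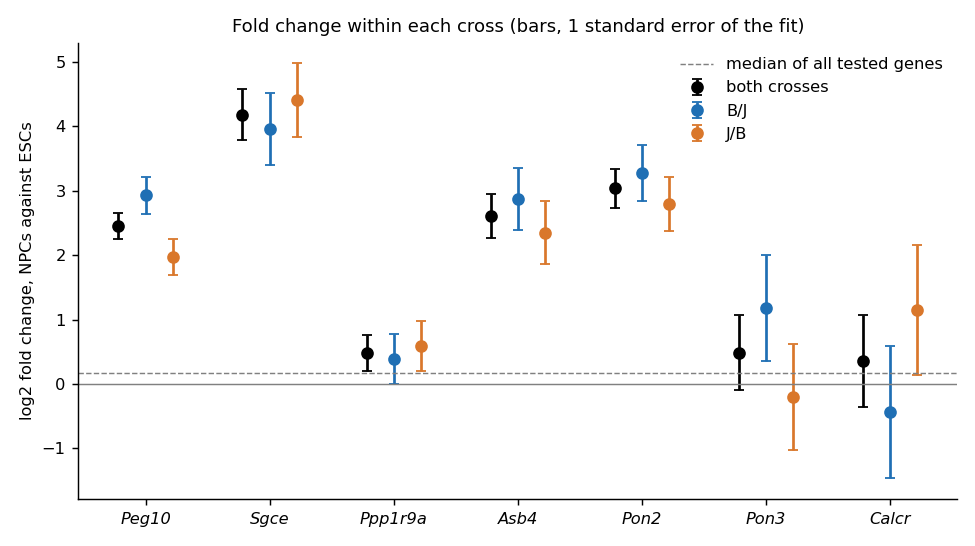
Log2 fold change of NPCs against ESCs for the 7 genes tested, over both crosses (black) and within B/J (blue) and J/B (orange), with bars of 1 SE of the fit and a dashed line at the median of all tested genes. *Sgce* has the largest change in each, and the bars of *Pon3* and *Calcr* are the widest.

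None of the 7 genes passed the test of the difference between the crosses in the stage effect, with edgeR, DESeq2 or limma-voom, and 1 of 7, *Peg10*, had an unadjusted p under 0.05. The rise of *Peg10* was smaller in J/B by 0.95 on the log2 scale (SE 0.38, unadjusted p = 0.0383, adjusted p = 1.0). Over all 16399 genes the count was 0 (0%) with edgeR and limma-voom, 11 with DESeq2 and 573 at an unadjusted p under 0.05. In ESCs no member differed between J/B and B/J by any of the 3 tools or at an unadjusted p under 0.05, and over all genes the count was 0 (0%), with 346 unadjusted, 0 by limma-voom and 10 by DESeq2. In NPCs *Peg10* was lower in J/B by 0.64 (SE 0.27, unadjusted p = 0.0470, adjusted p = 0.770) and *Asb4* by 0.93 (SE 0.45, unadjusted p = 0.0710, adjusted p = 0.770), and no member was called by any of the 3 tools. A single gene was called there among all tested (0.00610%), the X-linked long non-coding RNA *Firre*, named here after its values were seen. The count was 1 by limma-voom and 70 by DESeq2, 1050 genes had an unadjusted p under 0.05, and no gene was called on library totals, on the housekeeping genes, with a replicate block, or without any 1 of the NPC or B/J ESC libraries.

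Of 9 neighbours tested, 5 rose, 3 fell and 1, *Dync1i1*, was not called, with a median change of 0.70, beside 37.5% of all tested genes called higher and 31.9% lower. *Col1a2*, a chain of type I collagen, rose by 6.80 (SE 1.28, adjusted p = 0.00210) and *Gng11*, a G protein subunit, by 4.01 (SE 0.58, adjusted p = 0.000527). *Hepacam2*, an adhesion protein, rose by 2.94 (SE 0.78, adjusted p = 0.0105, from 6 counts in ESCs). The change of *Hepacam2* was 2.52 without ESC B/J replicate 1 and 4.24 without ESC B/J replicate 2. *Slc25a13*, the mitochondrial aspartate-glutamate carrier, fell by 2.08 (SE 0.20), *Pdk4*, a kinase that inhibits pyruvate dehydrogenase, fell by 2.10 (SE 0.40) and *Vps50*, which acts in endosomal recycling, fell by 1.19 (SE 0.15). *Gngt1* had 0 counts in every library and *Pon1*, the third paraoxonase, had 0 counts in ESCs and 14 over the 4 NPC libraries, and neither was tested.

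*Casd1*, the gene next to *Sgce* on the other side from *Peg10*, makes the enzyme that acetylates sialic acids and was picked out after its values were seen. It was read at 14.4 and 17.9 TMM-CPM in the B/J ESCs, 13.0 and 21.1 in the J/B ESCs, 84.7 and 78.6 in the B/J NPCs, and 63.5 and 70.2 in the J/B NPCs. Its log2 fold change was 2.15 (SE 0.19). The adjoining genes *Casd1*, *Sgce* and *Peg10* were thus all called higher, *Ppp1r9a* and *Pon3* after them were not, and *Pon2* and *Asb4* were. *Col1a2*, which lies before *Casd1*, was also the gene in which 1 ESC library stood apart, with 19.2 TMM-CPM in ESC J/B replicate 1 and at most 0.171 in the other ESC libraries. Without it, the change of *Col1a2* was 9.69 and that of *Casd1* was 2.0.

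**Figure D4:**
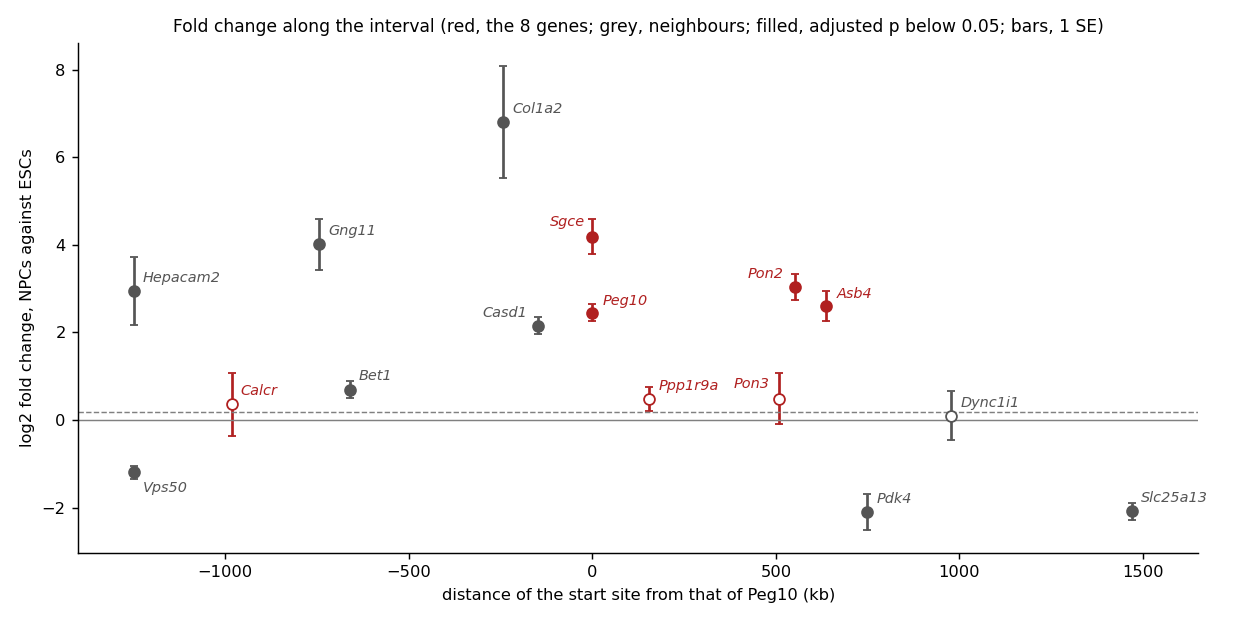
Log2 fold change of NPCs against ESCs (bars, 1 SE) against the distance of the gene's start site from that of *Peg10* in kb, for the 7 tested genes of the domain (red) and 9 neighbours (grey), with filled points for genes called and a dashed line at the median of all tested genes. The tested genes from *Gng11* to *Peg10* are all called higher, and genes called higher, called lower and not called lie on either side of them.

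Genes that work with the members were followed as lists, beside 37.5% of all tested genes called higher and 31.9% lower. Of the 9 tested relatives of *Peg10*, genes of the same retrotransposon family, 8 rose and none fell, with a median change of 2.81. *Rtl5* rose by 7.16 (SE 0.49) and *Rtl1* by 5.83 (SE 0.85). *Rtl3* rose as well, with only 2 counts in the ESC libraries together and 143 in NPCs, a ratio of 46.4 (12.6 to 387, counting error only). *Rtl6* was not called, but it was on library totals (0.94, adjusted p = 0.0315) and on the housekeeping genes (1.11, adjusted p = 0.0233). *Rtl8c* lost its call in 2 of 8 fits that left out 1 library, without ESC B/J replicate 1 and without NPC J/B replicate 1. *Rtl8b*, at an adjusted p of 0.04997, lost it in 6 of the 8. *Ldoc1*, another relative, was highest in NPC B/J replicate 1 at 132 TMM-CPM against 14.0 to 38.6 in the other NPCs.

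Of 6 tested partners of *Sgce* in the dystrophin complex, 3 rose, 1 fell and 2 were not called, with a median change of 1.0. Among all tested genes 37.5% were called higher and 31.9% lower. On library totals 4 rose, with *Utrn* (utrophin) added at 0.73, and on the housekeeping genes 5 rose, with *Dag1* (dystroglycan) also added, at 0.62 in place of -0.03 under TMM. The sarcoglycans *Sgcd* (3.91, SE 0.60) and *Sgcb* (1.74, SE 0.30) rose, as did sarcospan, *Sspn* (3.62, SE 0.82). Dystrophin itself, *Dmd*, fell by 1.60 (SE 0.18). Alpha- and zeta-sarcoglycan (*Sgca*, *Sgcz*) had 4 and 0 counts in ESCs and 20 and 10 in NPCs and were not tested.

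Of the 4 partners of *Ppp1r9a*, its paralogue *Ppp1r9b* (spinophilin) rose by 1.54 (SE 0.14) and the catalytic subunits of protein phosphatase 1 fell, *Ppp1cc* by 1.13 (SE 0.13), *Ppp1ca* by 0.82 (SE 0.17) and *Ppp1cb* by 0.46 (SE 0.14). On library totals or the housekeeping genes only *Ppp1cc* remained called lower, and *Ppp1cb* turned to 0.013 and 0.17, not called. *Ppp1cb* also lost its call in 4 of 8 fits that left out 1 library. Of the 10 tested partners of *Asb4*, 1 rose, 5 fell and 4 were not called. Both lists stand beside 37.5% of all tested genes called higher and 31.9% lower. *Asb13*, another receptor of the family, rose by 1.03 (SE 0.29), a call that was lost without ESC B/J replicate 1 (0.94, adjusted p = 0.0542), and *Asb6* fell by 1.33 (SE 0.21), *Asb1* by 1.3 (SE 0.19) and the scaffold *Cul5* by 0.91 (SE 0.15). On library totals these counts were 2 and 3, and on the housekeeping genes 3 and 2, with *Cul5* no longer called there (-0.28, adjusted p = 0.17).

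Of 5 genes related to *Tfpi2* in protease inhibition and clotting, 3 rose, namely the urokinase *Plau* (4.69, SE 0.58), tissue factor *F3* (4.26, SE 0.49) and *Tfpi* (1.65, SE 0.23), while *Spint1* and *Spint2* were not called. This list and the next stand beside 37.5% of all tested genes called higher and 31.9% lower. *Spint1*, at -0.09 under TMM, was called higher on library totals (0.39, adjusted p = 0.0474) and on the housekeeping genes (0.56, adjusted p = 0.0247). *Spint2*, at -0.45 under TMM, was called lower without ESC J/B replicate 1 (-0.66, adjusted p = 0.0441) and with a block within each stage (-0.38, adjusted p = 0.00954). Of 5 tested partners of *Calcr*, 3 rose, the related receptor *Calcrl* (7.17, SE 0.59, from 11 counts in ESCs), the peptide *Adm* (3.70, SE 0.55) and the accessory protein *Ramp2* (2.91, SE 0.39). *Ramp3* and *Calca* were not called, and *Ramp1*, *Iapp* and *Calcb* were too low to be tested. *Calcrl*, *Adm* and *Ramp2* are known for their part in vessels, and of the 6 endothelial markers *Cdh5*, *Kdr* and *Emcn* rose, *Pecam1* fell, and *Tek* and *Tie1* were not called. The part of endothelial cells was not tested.

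Imprinted genes of other domains mostly rose as well. Of all tested genes, 37.5% were called higher and 31.9% lower, with a median change of 0.17. Among 20 other paternally expressed genes, 16 rose, 2 fell and 2 were not called, with a median change of 2.07. The largest were *Igf2*, a growth factor, at 7.70 (SE 0.38), *Airn*, a non-coding RNA, at 6.37 (SE 0.79, from 5 counts in ESCs) and *Nnat* at 5.82 (SE 0.46), and *Snrpn* fell by 1.40 (SE 0.32) and *Mcts2* by 0.83 (SE 0.23). Among 15 tested maternally expressed genes, 10 rose, 3 fell and 2 were not called, with a median of 1.24. Of the risers *Meg3* lost its call in 4 of 8 fits that left out 1 library and *Slc22a18* in 3, which left 8 rises without ESC B/J replicate 1 and without NPC J/B replicate 2. *Rian*, not called at -0.56, was called lower without ESC J/B replicate 1 (-0.78, adjusted p = 0.00976) and with either replicate block (-0.51). *H19* rose by 6.71 (SE 0.40) and *Slc22a3* by 6.92 (SE 0.72, from 6 counts in ESCs). *Kcnk9*, the potassium channel gene that the study is about, went from 3 counts in ESCs to 711 in NPCs. The ratio was 154 (52.5 to 748, counting error only), and the fitted change was 8.06 (SE 1.16). The level of *Kcnk9* ranged from 0.684 to 11.5 TMM-CPM among the NPC libraries. *Tspan32* fell by 3.02 (SE 0.82), *Mirg* by 1.21 (SE 0.21) and *Phlda2* by 0.83 (SE 0.27). *Mcts2* and *Phlda2* were not called on library totals or the housekeeping genes, nor *Snrpn* and *Mirg* on the latter, where 17 of the 20 and 11 of the 15 rose. *Mcts2* also lost its call without ESC B/J replicate 1 (adjusted p = 0.0515), and *Phlda2* in 4 of 8 fits that left out 1 library.

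The rises of the 4 genes were called under each scaling. The log2 fold change of *Peg10* was 2.92 on library totals and 3.06 on the housekeeping genes, beside medians of 0.65 and 0.80 for all genes, and those of *Sgce* were 4.65 and 4.78, of *Asb4* 3.08 and 3.21, and of *Pon2* 3.51 and 3.66.

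**Figure D5:**
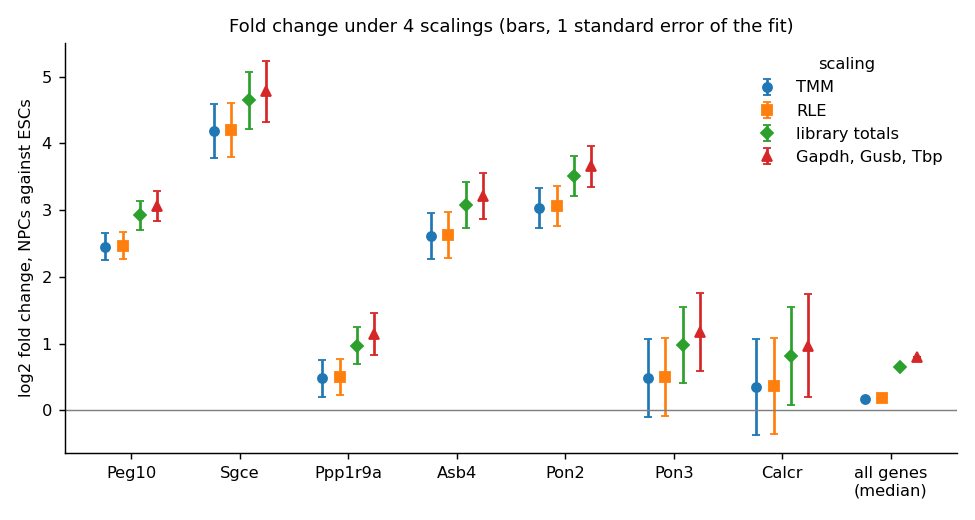
Log2 fold change of NPCs against ESCs (bars, 1 SE) of the 7 genes tested under TMM, RLE factors, library totals and scaling to the housekeeping genes, with the median of all tested genes at the right. Library totals and housekeeping genes lift all 7 genes, and the order of the 4 largest changes stays the same.

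The tested genes with the pattern most like each member over the 8 libraries were named by the smallest root mean square difference of centred log2 TMM-CPM among 14080 genes with a mean of at least 1 CPM, which is a description without a test. For *Peg10* they were *Slc30a4* (0.111), *Rbms1* (0.122) and *Ifnar2* (0.138), where the median gene was at 1.41. For *Sgce* they were *Prr5l* (0.216), *Gm5817* (0.239) and *Vgll3* (0.307). *Asb4* was closest to *Arid3a* (0.250), *Gchfr* (0.253) and *Atp11a* (0.254), and *Pon2* to *Micall2* (0.179), *P3h4* (0.179) and *Vash2* (0.181). *Ppp1r9a* was closest to *Dync2h1* (0.153), *Hectd4* (0.154) and *Dock4* (0.154), *Pon3* to *Mamstr* (0.255), *Zfp286* (0.407) and *Qpct* (0.419), and *Calcr* to *Cbln4* (0.303), *Ina* (0.414) and *Jph4* (0.416). No gene of the domain was among the 3 closest to another.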

How the data were processed

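RNA-seq libraries of ESCs and day 12 NPCs from B/J and J/B lines were analysed (4 groups, 2 replicates each). The authors prepared stranded or NEBNext Ultra II mRNA libraries (the kit of each library: not given in the sources used here), aligned read pairs with TopHat2 to mm39 masked at JF1 SNPs, kept proper pairs by mapping quality, and deposited raw counts per gene, summed over both alleles. The submitters' processing notes also name HTSeq, DESeq2 and edgeR, without versions. The 5 closing entries without a gene were left out. Reads with no feature came to 5.76% to 10.9%, and ambiguous reads to 0.355% to 0.554%, of gene counts and closing entries together.

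The counts were fitted under R 4.3.3 in edgeR 4.0.16, limma 3.58.1 and DESeq2 1.42.0. The main fit, in edgeR, used TMM, filterByExpr with a minimum count of 10 and a robust quasi-likelihood fit of 4 group means, over 16399 genes. These tools were tested on simulated data in which few genes changed, up and down alike. Such data could not check the scaling between the stages. A count of 0 was given a limit of 3 counts, and intervals at the 95% level cover counting error only. Count ratios were tested with two-sided exact permutations. Likeness used a prior count of 0.5. Alternatives were RLE factors, library totals, *Gapdh*, *Gusb* and *Tbp*, DESeq2, limma-voom, other filters, no robust estimation, a replicate block, each cross alone, 2 counts added to ratios, and each library left out. The alternatives of the lists, and a block for each stage on its own, were added after seeing the data. The 8 genes and the lists were chosen with earlier results of these data known. Named were the 8 genes, at most the 3 largest rises and 3 largest falls among called genes of each list, and the 3 genes most like each member. Other genes named were untested, not called, markers or picked after their values were seen. An untested gene of the lists is not reported here. Positions are from GENCODE vM39 (GRCm39), promoters from RefSeq (GRCm38.p6).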

Additional observations from a re-analysis of the deposited data

Results flagged for a closer look

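In each stage, the 4 libraries were searched for one far from the rest, in 20 sets of values (8 genes and 2 ratios at 2 stages), by the 95% limit of Dixon's gap test. Chance alone passes about 1 in 20 such sets, and 2 passed. *Sgce* in NPC B/J replicate 1, at 64.4 TMM-CPM, was far above the other NPC libraries (49.0 to 50.9). *Pon2* in ESC B/J replicate 1, at 1.09 TMM-CPM, was far below the other ESC libraries (2.31 to 2.56).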

How the results depend on the processing

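The calls of *Peg10*, *Sgce*, *Asb4* and *Pon2* as higher in NPCs, pooled or by cross, held in every alternative run, with log2 fold changes over both crosses of 2.30 to 3.06, 3.87 to 4.81, 2.42 to 3.21 and 2.82 to 3.66. Over all 7 tested genes and all comparisons there were 42 values with 770 alternatives. Of these, 733 kept direction and side of the threshold, 8 gained a call, 29 reversed and none lost a call. The gained calls were of *Ppp1r9a* and *Calcr*. All reversals were of values not called, and their cause was not tested. Reversed values were, for *Calcr* within B/J, 0.033 on library totals and 0.090 on the housekeeping genes; for *Pon3* within J/B, 0.30 on library totals, 0.63 on the housekeeping genes, 0.25 with limma-voom and 0.023 with a block within each stage; for J/B against B/J in ESCs, *Calcr* at -0.58 with limma-voom, -0.18 with a replicate block and -0.28 with a block within each stage, and *Ppp1r9a* at -0.0055 without a filter on low counts; and for J/B against B/J in NPCs, *Sgce* at 0.085 on the housekeeping genes. With 1 library left out, values of NPCs against ESCs ranged from -0.087 to 1.80 for *Calcr*, from -0.33 to 0.86 for *Ppp1r9a* within B/J and from -0.97 to 1.53 for *Pon3* within J/B. For the interaction they ranged from -0.19 to 1.69 for *Sgce*, from -0.29 to 0.90 for *Ppp1r9a* and from -2.16 to 0.35 for *Pon3*. Between the crosses in ESCs they ranged from -1.85 to 0.028 for *Sgce*, from -0.20 to 0.25 for *Ppp1r9a*, from -1.22 to 1.29 for *Pon3* and from -2.67 to 1.1 for *Calcr*, and in NPCs from -0.36 to 0.034 for *Sgce*, from -0.27 to 0.93 for *Ppp1r9a* and from -0.089 to 0.27 for *Pon2*.

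Over all genes, the interaction gave 11 calls with DESeq2. J/B against B/J gave 10 with DESeq2 and 2 without a filter in ESCs, and in NPCs 70 with DESeq2, 5 without a filter, 4 with a block within each stage, and 0 on library totals, on the housekeeping genes and with a replicate block, with 0 to 1 when a library was left out. NPCs against ESCs within J/B gave 8935 calls, and 5700 to 8475 with a library left out, the lowest without NPC J/B replicate 2. The *Pon3* to *Pon2* difference was -2.43 with 2 counts added (exact permutation, p = 0.0286) and -2.92 to -2.09 with a library left out, and that of *Peg10* to *Sgce* was -2.10 to -1.44.

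Replicate numbers were shared by the groups. Deviations from the group means of libraries with the same number correlated at 0.43 between the ESC groups and at 0.62 between the NPC groups, but at 0.0429 to 0.0875 across the stages, so the numbers were not taken to pair ESCs with NPCs. A replicate block gave 12010 calls in place of 11378 and 4 of the 7 genes, and a block within each stage gave 12845 and 5, with *Ppp1r9a* at 0.45 (adjusted p = 0.0302) as the fifth. With the replicate block, the *Peg10* to *Sgce* difference of -1.88 had p = 0.125 (exact sign changes over pairs), the smallest that 4 pairs allow. Depth limits *Tfpi2* in all libraries and *Calcr*, *Pon3*, *Sgce*, *Asb4* and *Pon2* in some ESC libraries.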
